A study of Mus musculus with 12 samples.

Results

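Sfn, Spint2, Erbb3, Sdc1 and Galnt3 are 5 genes of epithelial cells that were followed through 12 libraries of mouse ileum, the last stretch of the small intestine. They were taken by name from the 780 genes of a targeted nCounter panel for tumour signalling, which counts RNA molecules with 1 barcoded probe per gene. They were chosen by their measured differences between G007-LK and control, so the values of that comparison are a description here and carry no test. Control mice received DMSO by mouth once a day. Treated mice received STP1002 by mouth once a day at either 5 mg/kg or 10 mg/kg, or G007-LK at 30 mg/kg, injected into the peritoneum 2 times each day. Treatment lasted 28 days in all groups, and each group gave 3 mice, drawn at random from 8. STP1002 and G007-LK inhibit tankyrases, enzymes that promote the breakdown of axin and so favour Wnt signalling. Compound, dose, route and schedule change together between STP1002 and G007-LK, and no injected control group is among the 12 libraries, so these cannot be told apart. Strain, sex and age of the mice are not given in the labels.

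The ileal surface is a single sheet of epithelial cells renewed from stem cells in the crypts, and Wnt signals keep those stem cells dividing. Sfn encodes 14-3-3 sigma, a cytoplasmic adaptor of epithelial cells that binds phosphorylated client proteins and is a target of p53. Spint2 encodes a membrane-bound Kunitz-type inhibitor of serine proteases, also called hepatocyte growth factor activator inhibitor 2, whose loss in people causes a congenital diarrhoea. Erbb3 encodes a receptor for neuregulins with a weak kinase of its own, which signals in pairs with other ErbB receptors. Sdc1 encodes syndecan 1, a heparan sulfate proteoglycan on the surface of epithelial cells and also of plasma cells. Galnt3 encodes a Golgi enzyme that starts O-linked glycosylation by adding N-acetylgalactosamine to serine and threonine.

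The start regions are shown because Sfn and Spint2 stood lower and Sdc1 stood higher with the same compound. RefSeq start regions (GRCm38.p6, 250 bases before to 50 bases after the annotated start, on the strand of the gene) were at hand for 4 of the 5 members. Those of Sfn (chr4:133602119-133602418, minus strand), Spint2 (chr7:29281928-29282227, minus strand) and Sdc1 (chr12:8771146-8771445, plus strand) follow from 5′ to 3′, with capitals on matches to CACCTG or its reverse complement, an E-box form that Snail and Zeb repressors bind.
Sfn: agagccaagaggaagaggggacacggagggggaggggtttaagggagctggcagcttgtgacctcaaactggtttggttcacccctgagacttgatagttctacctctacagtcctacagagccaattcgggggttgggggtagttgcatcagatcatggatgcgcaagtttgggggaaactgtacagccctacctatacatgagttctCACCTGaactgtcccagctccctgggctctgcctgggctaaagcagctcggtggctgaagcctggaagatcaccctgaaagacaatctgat
Spint2: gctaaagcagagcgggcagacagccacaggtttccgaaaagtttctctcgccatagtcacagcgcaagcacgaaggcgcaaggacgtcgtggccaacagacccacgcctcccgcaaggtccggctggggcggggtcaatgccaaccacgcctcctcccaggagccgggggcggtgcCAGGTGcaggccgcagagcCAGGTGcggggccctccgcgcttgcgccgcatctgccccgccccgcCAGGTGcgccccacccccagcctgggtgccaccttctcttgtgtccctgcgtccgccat
Sdc1: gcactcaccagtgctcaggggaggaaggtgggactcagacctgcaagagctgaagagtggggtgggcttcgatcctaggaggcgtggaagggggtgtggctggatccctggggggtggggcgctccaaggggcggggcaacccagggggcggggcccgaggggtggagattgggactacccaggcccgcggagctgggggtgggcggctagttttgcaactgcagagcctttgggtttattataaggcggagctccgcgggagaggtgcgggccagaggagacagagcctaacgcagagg

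Both strands were also searched for the letters CCGCCC, a GC box bound by SP and KLF factors. A form of the site of Grainyhead-like factors was searched as AACCNGTT, one of TCF and LEF factors as CTTTGAT, and one of the intestinal CDX factors was spelled TTTATG. The E-box form shown in capitals had 1 match in Sfn, 3 in Spint2, 3 in Galnt3 and 0 in Sdc1. It occurred in 20.2% of all 32851 start regions and in 18.0% of the 701 regions of panel genes. In Sfn the match began 41 bases before the start, and in Spint2 the nearest match began 9 bases before it. The GC box had 3 matches each in Spint2, Sdc1 and Galnt3 and 0 in Sfn, against 35.7% of all regions and 55.6% of panel regions with at least 1. The Grainyhead-like form had 1 match, in Sfn, against 2.09% of all and 2.71% of panel regions. The TCF and LEF form had 0 matches in the 4 regions, against 3.73% of all and 3.00% of panel regions, and the CDX form had 0, against 11.9% of all and 6.13% of panel regions. None of these matches overlapped a match to another of the motifs, and a match describes letters in the window, not binding.

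Depth and background differed between libraries. Signals are the authors' normalized values on a linear scale, and the counts behind them, recovered from the steps between values, summed to 31901 to 508829 per library. Background was set in each library at 2 SD above the mean of the negative control probes and ran from 4.33 to 40.4 on the signal scale. Control replicate 1 and G007-LK replicate 1 were the deepest libraries and stood apart from the others on the first principal component (-26.1 and -49.6, with 58.0% of the variance), as did STP1002 10 mg/kg replicate 2 at the other end (33.1). Differences of the members from control are therefore also given without the 2 deepest libraries, as are those of the epithelial markers and the medians of the main lists, and those at 10 mg/kg also without replicate 2. The epithelial markers Epcam and Cdh1 were above background in 12 of 12 libraries. Of 55 listed epithelial genes 14 were measured, and the listed ileal markers Vil1, Cdx2, Fabp6 and Olfm4 were not among these 14. In bulk tissue, fewer cells of a type and less RNA per cell cannot be told apart. Nothing in the labels says more of how the mice of a group were kept. The p-values weigh a group difference against the spread between mice within groups, pooled over all groups. They do not cover any difference in how the groups were kept.

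With G007-LK, Sfn, Spint2 and Erbb3 were 7.66-fold to 10.3-fold lower than in control mice, Sdc1 was 3.85-fold higher, and Galnt3 was too dim to be measured. Limma, which tests each gene on log2(signal + 1) across the 12 libraries, called 1.15% of the 780 genes lower and 2.31% higher at an adjusted p under 0.05. Signals in the 3 treated mice lay below all control signals for 4 of the 5 members, where 7.95% of the panel did so, and above them for Sdc1, where 10.1% did so. This contrast was used to choose the members, so nothing is read from these counts.

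Sfn was the brightest member. Control replicates 1 to 3 had 4976, 4087 and 2052, and the mice given G007-LK had 140.9, 508.7 and 522.8. All 3 treated mice were below the lowest control mouse, and G007-LK replicate 1 was the lowest of the 12 libraries. The log2 difference from control was -3.37 ± 0.77 (SE), or 10.3-fold lower on the log2(signal + 1) scale, which understates folds of dim genes. Within each library, where the scaling factor has no part, Sfn ranked between 1 and 9 of 780 probes in the 9 libraries of the other groups and at 199, 37 and 40 in the G007-LK libraries. A rank orders probe signals, which also depend on the probe, and says nothing of molecules per cell.

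Spint2 had 3135, 1425 and 1057 in the control mice and 112.5, 209.6 and 440.2 with G007-LK. The groups were apart, and control replicate 1 was the highest of the 12 libraries. The log2 difference was -2.94 ± 0.64 (SE), 7.66-fold lower. Its rank moved from 5, 12 and 15 in control to 223, 122 and 53.

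Erbb3 had 1774, 1110 and 791.0 in the control mice and 63.5, 135.5 and 321.0 with G007-LK. Again the groups did not overlap, and the order of the 3 treated mice was the same as for Spint2. The log2 difference was -3.04 ± 0.62 (SE), 8.20-fold lower. Sfn, Spint2 and Erbb3 were above background in 12 of 12 libraries, and the smallest recovered count among them was 53, for Erbb3 in G007-LK replicate 2.

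Sdc1 went the other way. Its control signals were 70.9, 51.2 and 78.3, and those with G007-LK were 569.8, 127.8 and 229.9. All 3 treated mice were above the control mice, replicate 1 by the widest margin. The log2 difference was 1.94 ± 0.60 (SE), 3.85-fold higher. Its rank was 57, 238 and 109 with G007-LK and no better than 265 elsewhere. Control replicates 2 and 3 held 19 and 20 recovered counts of Sdc1, at 2.08 and 2.67 times background. G007-LK replicate 2 held 50, at 3.17 times background, so this fold rests on fewer counts than those of the brighter members. As a group of epithelial genes, the 5 members did not share 1 direction.

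Galnt3 was at or below background in 11 of 12 libraries. Its signals were 9.69, 13.5 and 11.8 in control mice and 1.81, 5.11 and 1.00 with G007-LK, the last being the floor of the deposited scale. Recovered counts ran from at most 1 to 22, and only control replicate 1, with 22 counts, was above its background of 4.33. The log2 difference of -1.95 ± 0.52 (SE) is between values that background probes also reach, and it was 0.00 once all libraries were given the highest background as a common floor. No fold is given for this gene.

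**Figure D1:**
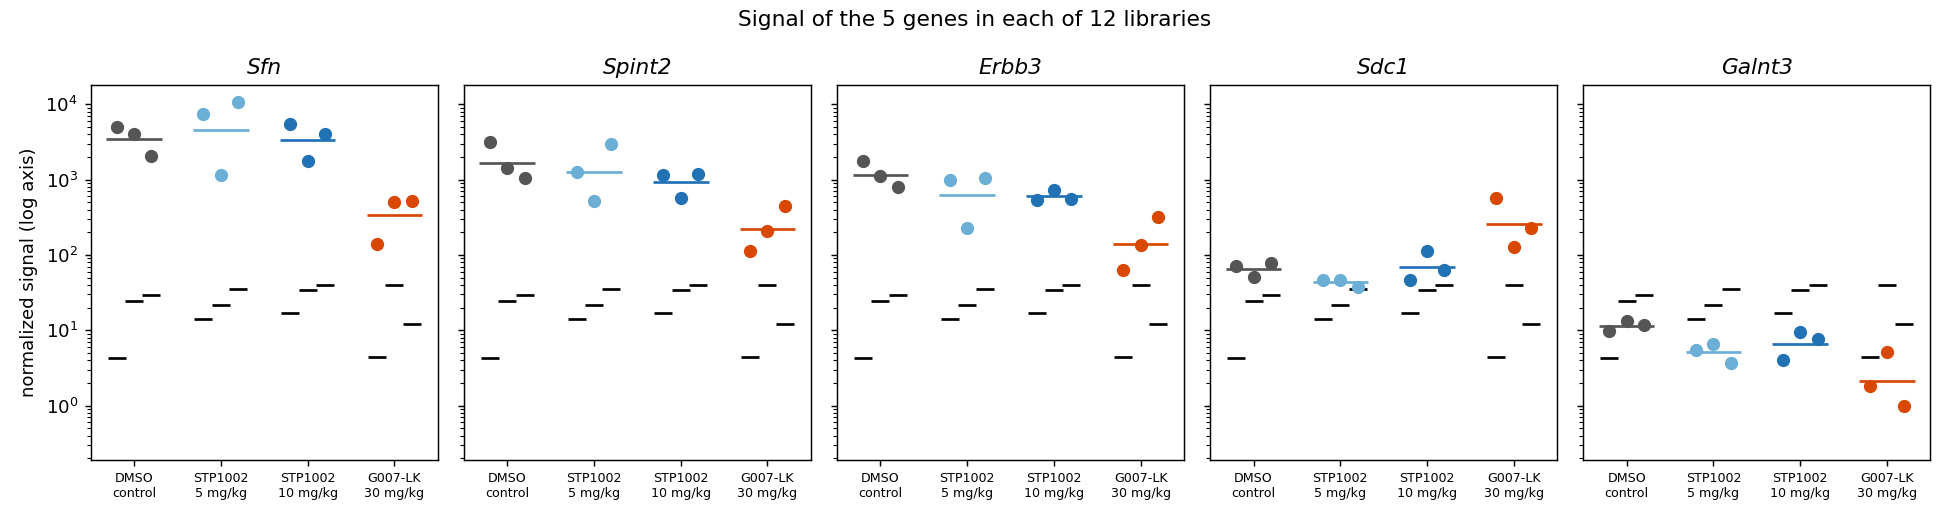
Normalized signal of each gene (log axis) in the 12 libraries, 3 per treatment group, with replicates 1 to 3 from left to right; coloured lines are geometric means and short black bars the background of each library. Sfn, Spint2 and Erbb3 have their lowest group mean and Sdc1 its highest with G007-LK, and Galnt3 is above its background in control replicate 1 alone.

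Without control replicate 1 and G007-LK replicate 1 the log2 differences were -2.49 for Sfn, -2.01 for Spint2, -2.16 for Erbb3 and 1.42 for Sdc1. Each was nearer to 0 than with all libraries and kept its direction. Over all 21 alternatives the values ran from -3.75 to -2.49 for Sfn, from -3.44 to -2.01 for Spint2, from -3.63 to -2.16 for Erbb3 and from 1.37 to 2.48 for Sdc1. The panel as a whole had a median log2 difference of -0.09 in this comparison, and of -0.05 after median-ratio rescaling. It ran from -0.40 without control replicate 1 to 0.27 without G007-LK replicate 1, and was -0.07 without both.

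STP1002 gave no called difference in any member. Of the 780 genes, 0 (0.0%) passed limma's adjusted test at 5 mg/kg against control, 18 (2.31%) were below 0.05 before adjustment, and edgeR on the recovered counts had 0 and 25. At 10 mg/kg limma had 0 (0.0%) after and 36 (4.62%) before adjustment, and edgeR 0 and 45. The control libraries are shared with the G007-LK comparison. An adjusted p that misses the threshold does not show equal levels, and the intervals below are wide.

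Sfn in the mice given 5 mg/kg was 7458, 1169 and 10740, and at 10 mg/kg it was 5481, 1792 and 4023. At the lower dose replicates 1 and 3 were above all control mice and replicate 2 was below them all, and at the higher dose the groups overlapped. The log2 difference from control was 0.39 ± 0.77 (SE) at 5 mg/kg, with a 95% interval from -1.24 to 2.02 (limma adjusted p = 0.998). It was -0.03 ± 0.77 (SE) at 10 mg/kg, with an interval from -1.66 to 1.60 (limma adjusted p = 0.983), and was 0.32 after quantile normalization and -0.72 after median-ratio rescaling.

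Spint2 was 1270, 528.5 and 2984 at 5 mg/kg, whereas it was 1162, 577.5 and 1199 at 10 mg/kg. Replicate 2 was the lowest of its group at each dose, as it was for Sfn. The log2 difference was -0.41 ± 0.64 (SE) at 5 mg/kg (95% interval -1.76 to 0.93, limma adjusted p = 0.998) and -0.85 ± 0.64 (SE) at 10 mg/kg (95% interval -2.20 to 0.50, limma adjusted p = 0.464).

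Erbb3 was 1004, 228.4 and 1060 at 5 mg/kg, whereas it was 538.6, 730.9 and 557.7 at 10 mg/kg. The 3 mice at 10 mg/kg lay below the lowest control mouse, 791.0, whereas at 5 mg/kg replicates 1 and 3 were within the control range. Log2 differences were -0.89 ± 0.62 (SE) with a 95% interval from -2.19 to 0.41 (limma adjusted p = 0.998) and -0.94 ± 0.62 (SE) with an interval from -2.24 to 0.36 (limma adjusted p = 0.464). At 10 mg/kg the whole panel was shifted by a median log2 difference of 0.69, and after median-ratio rescaling, which brought that median to 0.01, Erbb3 stood at -1.64 and Spint2 at -1.55 (limma adjusted p of 0.791 and 0.793).

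Sdc1 was 46.2, 46.7 and 37.2 at 5 mg/kg, whereas it was 46.9, 111.3 and 63.4 at 10 mg/kg, from 10 to 58 recovered counts. All 3 mice at 5 mg/kg were below the lowest control mouse, 51.2, while at 10 mg/kg the groups overlapped. The log2 difference was -0.60 ± 0.60 (SE) at 5 mg/kg (95% interval -1.87 to 0.68, limma adjusted p = 0.998). At 10 mg/kg it was 0.07 ± 0.60 (SE), with a 95% interval from -1.20 to 1.35 (limma adjusted p = 0.937), and it turned to -0.62 after median-ratio rescaling. Galnt3 was below background in all 6 libraries of STP1002, at 3.72 to 9.59.

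Counted over the 5 members, 2 did not overlap with control and were lower at 5 mg/kg (Sdc1 and Galnt3, where 1.92% of the panel did so), and 2 at 10 mg/kg (Erbb3 and Galnt3, where 2.82% did so). Galnt3 is below background in these libraries. No member was above all control mice, where 2.82% of the panel was at 5 mg/kg and 9.36% at 10 mg/kg. Between the doses limma had 0 calls (0.0%) after and 18 (2.31%) before adjustment, and edgeR 0 and 15. Sdc1 was the 1 member without overlap, higher at 10 mg/kg by 46.9 against 46.7 at the nearest, where 8.72% of the panel was higher and 1.92% lower in this way. The log2 differences of 10 against 5 mg/kg were -0.41 ± 0.77 (SE) for Sfn, -0.44 ± 0.64 for Spint2, -0.05 ± 0.62 for Erbb3 and 0.67 ± 0.60 for Sdc1, with limma adjusted p from 0.654 for Sdc1 to 0.965 for Erbb3. Their 95% intervals ran from -2.04 to 1.21, from -1.78 to 0.91, from -1.35 to 1.25 and from -0.61 to 1.95. Without replicate 2 the differences of 10 mg/kg from control were 0.44 for Sfn, -0.51 for Spint2, -1.08 for Erbb3 and -0.27 for Sdc1. Without the 2 deepest libraries they were 0.23, -0.40, -0.63 and 0.13, and those of 5 mg/kg were 0.65, 0.04, -0.58 and -0.54.

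**Figure D2:**
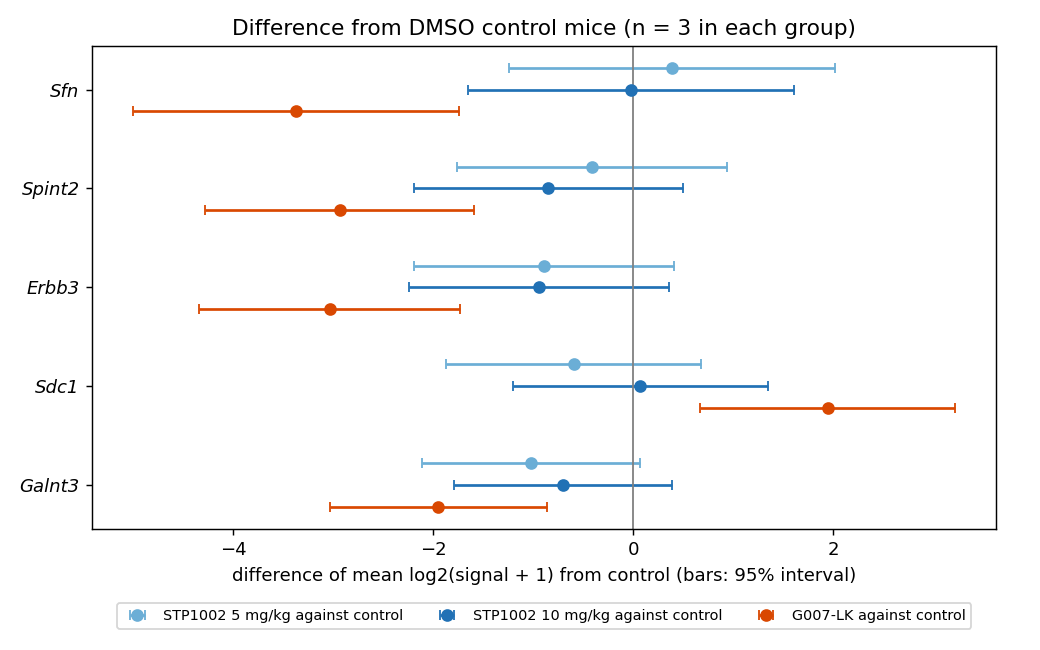
Difference in mean log2(signal + 1) from the 3 DMSO mice for each gene and treatment, with 95% intervals from limma over 12 libraries. The 10 intervals of STP1002 cross 0, and the G007-LK values, which served to choose the genes, lie at -3.37, -2.94, -3.04, 1.94 and -1.95 from Sfn to Galnt3. Galnt3 was too dim to be measured.

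Set beside STP1002, the G007-LK libraries held the same positions, with the same 3 treated mice in each contrast. Against 5 mg/kg the log2 differences were -3.76 ± 0.77 (SE) for Sfn, -2.52 ± 0.64 for Spint2, -2.14 ± 0.62 for Erbb3 and 2.54 ± 0.60 for Sdc1. Against 10 mg/kg they were -3.34 ± 0.77, -2.09 ± 0.64, -2.09 ± 0.62 and 1.87 ± 0.60. Sfn and Spint2 with G007-LK were below every mouse given STP1002, and Sdc1 was above every one of them. Erbb3 in G007-LK replicate 3, at 321.0, was above the 228.4 of STP1002 5 mg/kg replicate 2. Members without overlap numbered 2 lower and 1 higher against 5 mg/kg, where 9.49% and 10.5% of the panel did so, and 3 lower and 1 higher against 10 mg/kg, where 16.0% and 6.15% did so. The median log2 difference of all genes was -0.23 and -0.74 in these contrasts. Doses, routes and schedules differ, and no test is given since the G007-LK libraries were used in the choice of the members.

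Other epithelial genes are set beside the members as a description. The members were chosen for their differences in this comparison, so their distance from the other genes was fixed by that choice. Of the 14 measured markers, 0 were called in either direction by limma between G007-LK and control. Of these, 12 had a log2 difference below 0, although Krt17 among them had a higher mean signal with G007-LK (49.18 against 45.45). The median log2 difference of the markers was -0.73 where that of all genes was -0.09. These counts include dim markers, as Lamb3 was at or below background in every library and Muc1 and Esrp1 in most. Epcam, the epithelial cell adhesion molecule, had 262.1, 126.6 and 109.6 in control mice and 94.3, 58.8 and 201.8 with G007-LK (-0.56 ± 0.54 SE, limma adjusted p = 0.78). Cdh1, the E-cadherin of adherens junctions, had 217.2, 142.8 and 94.0 against 49.3, 71.6 and 134.5 (-0.86 ± 0.55 SE, limma adjusted p = 0.592). Both groups overlapped for these genes, which were singled out after their values were seen. Among the brightest markers of the list, the catenin Ctnnd1, which holds E-cadherin at the membrane, had -0.97 ± 0.41 SE (limma adjusted p = 0.294). Klf5, a transcription factor of crypt cells, had -1.42 ± 0.59 SE (limma adjusted p = 0.271), the junction protein Jup -0.62 ± 0.47 SE and the tight junction protein Tjp1 -0.18 ± 0.46 SE. Spint1, the close relative of Spint2, had 143.2, 113.2 and 105.7 in control and 16.3, 84.4 and 96.2 with G007-LK, without overlap (-1.20 ± 0.66 SE, limma adjusted p = 0.479). These differences were smaller in size without the 2 deepest libraries, and that of Tjp1 turned: Epcam stood at -0.11, Cdh1 at -0.24, Ctnnd1 at -0.59, Klf5 at -0.33, Jup at -0.12, Tjp1 at 0.05 and Spint1 at -0.28, and the median of the list at -0.24, with 10 of 14 lower. For STP1002 the medians of the list were -0.24 at 5 mg/kg and 0.08 at 10 mg/kg, where those of all genes were 0.12 and 0.69, with 0 genes called by limma in either direction.

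**Figure D3:**
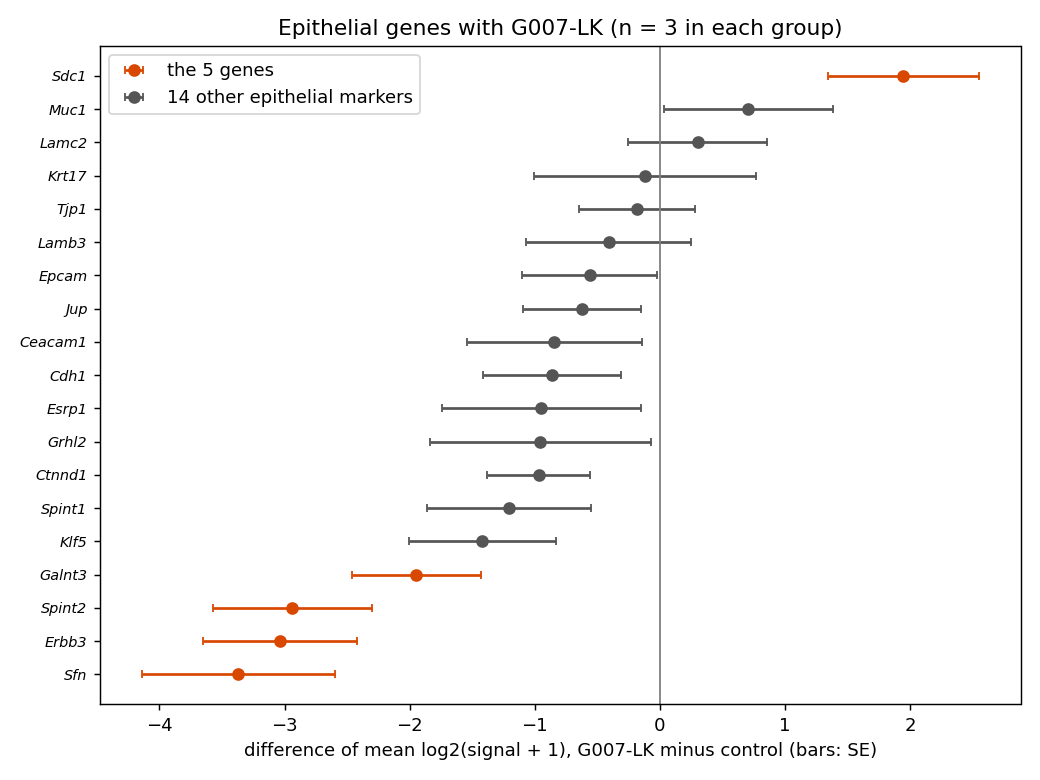
Difference in mean log2(signal + 1) between the 3 G007-LK and the 3 control mice, with SE, for the 5 genes (orange) and 14 other measured epithelial markers (grey), in order of size. Sfn, Erbb3, Spint2 and Galnt3 are at the low end, Sdc1 is at the high end, and the markers lie between -1.42 for Klf5 and 0.71 for Muc1. The 5 genes were chosen on this comparison, so nothing is read from their place at the ends. Galnt3 was above background in 1 of 12 libraries and too dim to be measured. Of the markers, Lamb3 was at or below background in every library, and Muc1 and Esrp1 in most.

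The ratio of a member to Epcam within a library does not depend on how libraries were scaled. The log2 ratio of Sfn to Epcam was 4.25, 5.01 and 4.23 in the control mice and 0.58, 3.11 and 1.37 with G007-LK. For Spint2 it averaged 3.45 ± 0.16 (SD, n = 3) in control and 1.07 ± 0.79 (SD, n = 3) with G007-LK. For Erbb3 the means were 2.91 ± 0.19 (SD, n = 3) and 0.43 ± 0.91 (SD, n = 3). For all 3 genes the ratio in each treated mouse was below that of every control mouse, where 1.41% of the 779 genes other than Epcam, members included, had such a ratio. The ratio of Sdc1 to Epcam was -1.89, -1.31 and -0.49 in control and 2.59, 1.12 and 0.19 with G007-LK, again without overlap, where 7.83% of genes were higher in this way. The members were chosen on these libraries and Epcam was singled out after its values were seen, so nothing is read from these shares. With STP1002 the ratio of Erbb3 to Epcam averaged 2.32 ± 0.98 (SD, n = 3) at 5 mg/kg and 2.05 ± 0.32 (SD, n = 3) at 10 mg/kg. At 10 mg/kg all 3 values, from 1.74 to 2.38, were below the lowest control value of 2.76, as those of 0.385% of genes were. Between members, the log2 ratio of Sfn to Erbb3 was 1.49, 1.88 and 1.38 in control, 2.89, 2.36 and 3.34 at 5 mg/kg, 3.35, 1.29 and 2.85 at 10 mg/kg, and 1.15, 1.91 and 0.70 with G007-LK. It was above all control mice in the 3 mice at 5 mg/kg and in 2 of the 3 at 10 mg/kg, a difference that was not tested. At 5 mg/kg 4.88% of genes had a ratio to Erbb3 above all control mice, and at 10 mg/kg 51.6% did, Sfn not among them. Set against Cdh1 in place of Epcam, the Erbb3 ratio averaged 3.02 ± 0.06 (SD, n = 3) in control, 2.31 ± 0.80 (SD, n = 3) at 5 mg/kg, where replicate 1 was within the control range, 1.99 ± 0.50 (SD, n = 3) at 10 mg/kg and 0.85 ± 0.45 (SD, n = 3) with G007-LK.

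**Figure D4:**
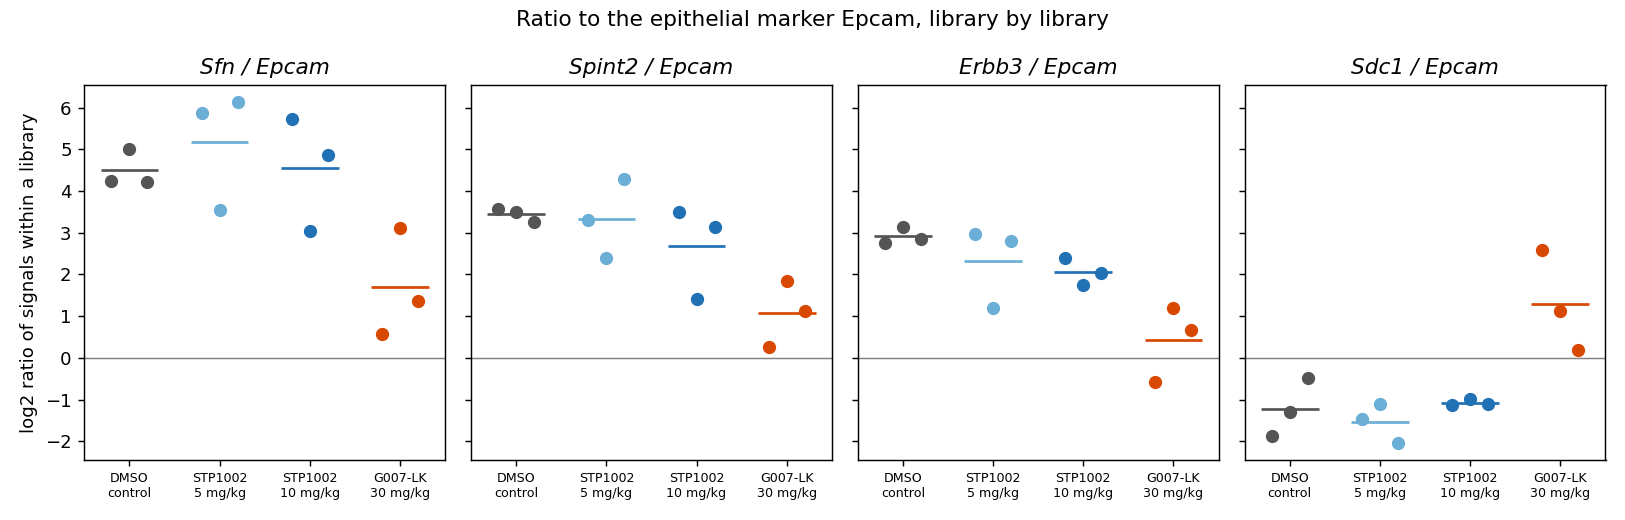
Log2 ratio of the signal of Sfn, Spint2, Erbb3 and Sdc1 to that of Epcam within each of the 12 libraries, 3 per group, with the group mean as a line. With G007-LK the ratios of the first 3 genes are below those of all control libraries, and that of Sdc1 is above 0 in all 3 treated libraries and below 0 in the other 9.

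Receptors and ligands around Erbb3 were measured for 5 of 21 listed genes, and limma called 0 of them with G007-LK. Erbb2, the usual partner of Erbb3, had 164.3, 272.1 and 234.9 in control and 57.7, 166.1 and 207.8 with G007-LK (-0.79 ± 0.53 SE, limma adjusted p = 0.628). Egfr had 105.3, 132.0 and 176.2 against 282.6, 191.7 and 255.4, higher in all 3 treated mice (0.83 ± 0.44 SE, limma adjusted p = 0.467). The adaptor subunit Pik3r3 of phosphoinositide 3-kinase and the exchange factor Sos1 had -0.50 ± 0.75 SE and 0.58 ± 0.71 SE. The median of the list was -0.03. Without the 2 deepest libraries Erbb2 stood at -0.44 and Egfr at 0.53, and the median at -0.22.

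Around Spint2, 6 of 13 listed genes of the hepatocyte growth factor axis were measured, with 0 called by limma and a median log2 difference of -0.52. The receptor Met had -0.24 ± 0.67 SE, its relative Mst1r -0.82 ± 0.49 SE and the urokinase gene Plau -0.65 ± 0.53 SE. Around Sfn, 11 of 28 genes of the 14-3-3 family, of 14-3-3 clients and of p53 targets were measured, with 1 called lower, where 1.15% of the panel was, and 0 higher, and a median of -0.64, where that of all genes was -0.09. The one called was Bad, an apoptosis promoter that 14-3-3 proteins hold in the cytoplasm. It had 202.6, 156.2 and 188.0 in control and 35.1, 43.4 and 34.1 with G007-LK (-2.25 ± 0.57 SE, limma adjusted p = 0.0362). Over the 21 alternatives the adjusted p of Bad ran from 0.00327 to 0.132, under 0.05 in 10. The p53 targets Cdkn1a, a cell cycle inhibitor, and Mdm2, which degrades p53, had 0.66 ± 0.55 SE and 1.03 ± 0.63 SE and were above all control mice, as 10.1% of the panel was, with limma adjusted p of 0.721 and 0.549. The cyclin Ccnb1 had -1.78 ± 0.99 SE (limma adjusted p = 0.495). Without the 2 deepest libraries the medians were -0.29 around Spint2 and -0.37 around Sfn, and Bad stood at -2.13 (limma adjusted p = 0.0233). Of 19 listed genes of O-linked glycosylation, Muc1 alone was measured, above background in 3 of 12 libraries, and none of the listed syndecan partners was.

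Transcription factors that repress epithelial genes were measured as Snai1, Snai2 and Zeb1, with 0 called by limma. Snai1 had 23.8, 161.6 and 121.4 in control and 25.4, 191.7 and 173.7 with G007-LK (0.28 ± 0.82 SE, limma adjusted p = 0.938). Snai2 had 0.38 ± 0.93 SE and Zeb1 -0.19 ± 0.68 SE. In both groups Snai1 was lowest in replicate 1, the deepest library, by a factor larger than the difference between the groups.

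Sdc1 also marks plasma cells, and 4 of their 12 listed genes were measured. With G007-LK all 4 had a difference below 0, 0 were called by limma and the median log2 difference was -0.86. Their summed signal ran from 724.4 to 2035 in control and from 527.9 to 943.1 with G007-LK, and 0 of 4 were at or below background throughout a group. Xbp1, a transcription factor of secretory cells, had -0.61 ± 0.53 SE, Cd38 -0.85 ± 0.79 SE, Irf4 -0.87 ± 0.63 SE and Tnfrsf17 -0.89 ± 1.00 SE. Within the G007-LK group, replicate 1 had the highest Sdc1 and also the highest Cd38 (519.0, against 122.7 and 189.9) and Xbp1 (403.9, against 219.8 and 233.3), and the lowest Irf4 and Tnfrsf17. Without the 2 deepest libraries the median of the list was -0.41, with 4 of 4 below 0. The part of plasma cells in the level of Sdc1 was not tested.

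Markers of other cell types were summed in the same groups, and myeloid genes alone among these lists held called genes between G007-LK and control. Of 12 measured myeloid markers 5 rose in limma's test (Cd14, Cd68, Cd84, Cybb and Tyrobp), where 2.31% of the panel was called higher. Cybb and Cd84 were each above background in 1 of 3 control mice, with at most 12 and 27 recovered counts in control. Cybb was also below background in G007-LK replicate 2, at 7 counts. The median log2 difference of the list was 1.89, where that of all genes was -0.09, and all 12 were above 0 on mean log2, although Csf3r had a lower mean signal with G007-LK (78.9 against 98.2). Without the 2 deepest libraries the median was 1.10, with 11 of 12 above 0 and 5 called. Their summed signal was 740.4 to 1151 in control, 1034 to 1362 with STP1002 at 5 mg/kg, 1296 to 2402 at the higher dose, and 4205 to 7240 with G007-LK. The 6 measured fibroblast and matrix genes summed to 835.2 to 1296 in control and 2027 to 3063 with G007-LK, 5 of 6 being above 0 on mean log2 and 0 called by limma. The epithelial list summed to 1441 to 2192 in control and 661.7 to 1524 with G007-LK. T cell genes summed to 121.1 to 649.3 and 56.0 to 590.4, and B cell genes to 89.1 to 403.3 and 89.2 to 462.6. The part of such shifts in the values of Sfn, Spint2, Erbb3 and Sdc1 was not tested. Endothelial genes summed to 306.1 to 509.0 and 275.1 to 379.8, and Actg2, the 1 measured gene of smooth muscle, ran from 140.1 to 434.3 and from 185.6 to 257.5.

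Likeness over the 12 libraries was measured as the root mean square difference between 2 genes' log2(signal + 1), each centred on its own mean, and is given as a description with no test. Among the members Spint2 and Erbb3 were the closest pair, at 0.48, followed by Sfn and Spint2 at 0.69, while Sdc1 was at least 1.70 from each of the others. Among 680 other genes with a mean above the mean background, Ccnd1, the cyclin of G1 phase, was nearest to Sfn, at 0.61. It had 1699, 428.4 and 603.0 in control and 15.4, 58.8 and 55.4 with G007-LK. Sqle, an enzyme of cholesterol synthesis, was nearest to both Spint2 (0.45) and Erbb3 (0.59). It had 409.2, 266.7 and 172.3 in control and 40.2, 79.2 and 80.0 with G007-LK. Socs3, an inhibitor of cytokine signalling, was nearest to Sdc1, at 0.43, with 93.4, 118.5 and 129.2 in control and 1300, 214.7 and 258.8 with G007-LK. The receptor gene Fgfr2 was nearest to the dim Galnt3, at 0.51. The mean of the 5 members had Pfkp (0.35), Psmb9 (0.36), Sqle (0.38), Ruvbl1 (0.41) and Birc5 (0.44) as its nearest genes. That mean joins Sfn, Spint2 and Erbb3 with Sdc1, which went the other way, and with the dim Galnt3. Pfkp had a log2 difference of -1.27 between G007-LK and control. With G007-LK all of the nearest genes named here but Socs3 were below every control mouse, where 7.95% of the panel was. They were picked for likeness to the members over the same libraries, so nothing is read from this.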

How the data were processed

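The deposited table holds 794 features of 12 libraries: 780 genes, 8 negative and 6 positive control probes. Per the labels' protocols, RNA had an integrity number above 7.0 and the panel covers 760 genes of tumour biology with 20 housekeeping genes. The authors deposited each gene's value as a linear signal after a normalization whose software and reference genes are not given in the sources used here. Dividing by 1 step in each library gave whole counts for 98.7 to 100% of genes (tolerance 0.0051), and 1 is the lowest value. Limma 3.58.1 (R 4.3.3) was fitted to log2(signal + 1) of all 780 genes with 1 mean per group over 12 libraries and a mean-variance trend. Tests were two-sided, adjusted by Benjamini-Hochberg over 780 genes, and called under 0.05. Group values are means with SD, differences are of mean log2 values with SE. The code was tested on simulated data. EdgeR 4.0.16 on the recovered counts, other scalings, a common floor, filters and omitted libraries were alternatives. Members and lists were chosen with earlier results of these data known. From each list the 4 brightest measured genes, and any called between G007-LK and control, are named. The T cell, B cell, endothelial and fibroblast lists are given by their sums instead. One list, of pancreas and liver genes, and one of glial genes had 0 measured members.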

Additional observations from a re-analysis of the deposited data

How the results depend on the processing

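The settings tried were a pseudocount of 10, a filter on low values, median-ratio and quantile scaling, a common background floor, a fit of the 2 compared groups alone, the replicate number as a block, edgeR on the recovered counts, omission of the 2 deepest libraries, and omission of each library in turn. Of the 30 member differences, 17 had a value of 1 sign under all 21 settings, and the G007-LK differences of Sfn, Spint2, Erbb3 and Sdc1 were among them. Signs turned in 8, and Galnt3 gave no value under the filter and 0.00 at the floor. The number of genes called between G007-LK and control was 27; it was 14 after median-ratio scaling, 7 at the common floor, 15 with the 2 groups alone, 63 with the replicate block, and 16 (without control replicate 2 or 3, or G007-LK replicate 1) to 47 (without G007-LK replicate 2) when each library was left out in turn. Against STP1002 5 mg/kg it was 22, and 6, 10, 1 and 61 under the same settings, 12 by edgeR, 34 without the 2 deepest libraries, and 7 (without STP1002 5 mg/kg replicate 1 or G007-LK replicate 1) to 33 (without G007-LK replicate 2) with a library left out. Against STP1002 10 mg/kg it was 24, and 2 at the floor, 260 with the block, 38 without the 2 deepest, and 3 to 53 with a library left out, being 5, 10 and 3 without STP1002 10 mg/kg replicates 1, 2 and 3, 9 without G007-LK replicate 1 and 53 without its replicate 2. For STP1002 against control the 0 calls became 3 at 5 mg/kg and 5 at 10 mg/kg without the 2 deepest libraries, and 2 at 10 mg/kg with the 2 groups alone. Replicate numbers were not taken to pair the mice, since no label ties them to a litter, batch or day. Even so, deviations of same-numbered libraries correlated at 0.01 to 0.78 over 18 pairs, 15 of them over 0.1 (mean 0.33, against -0.15 for other pairs). Deviations were taken from group means, so they sum to 0 in each group. The mean of the other pairs is therefore tied to that of same-numbered pairs and is no separate baseline. Of 12 libraries 7 correlated best with their own number. The p-values given are from the fit without the block. At 5 mg/kg against control, Spint2 turned to 0.0385 without the 2 deepest libraries; with a library left out Sfn ran from -0.23 to 1.37 and Spint2 from -1.03 to 0.21. At 10 mg/kg, Sfn turned to 0.32 (quantile) and 0.23 (without the 2 deepest), and ran from -0.40 to 0.44 with a library left out; Sdc1 turned to -0.62 (median-ratio), -0.65 (quantile) and -0.69 (edgeR), and ran from -0.27 to 0.35, the lowest without STP1002 10 mg/kg replicate 2. Between the doses, Sfn turned to 0.19 (quantile) and ran from -1.39 to 0.21, Spint2 from -1.06 to 0.18 and Erbb3 from -0.77 to 0.33 with a library left out, and Galnt3 turned to -0.18 (median-ratio) and -0.32 (edgeR). The cause of these turns was not tested. Counts limit Sdc1, with 10 to 58 under STP1002 and 19 and 20 in control replicates 2 and 3, and Galnt3, with at most 22 in any library.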

Other observations

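A further 16 epithelial genes of the panel, picked after their values were seen and so without weight as evidence, had a median log2 difference of -0.71 between G007-LK and control, with 15 lower and 0 called by limma; without the 2 deepest libraries the median was -0.40, with 13 lower. Tspan1, a tetraspanin, had -1.23 ± 0.77 (SE), and Foxa1, a pioneer transcription factor of gut epithelium, had -0.94 ± 0.75 (SE). The membrane mucin Muc16 and the integrin subunit Itgb6 had -0.08 ± 0.81 (SE) and 0.48 ± 0.80 (SE).

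B cell genes stood higher on mean log2 with STP1002 than in control but, like the members, had no called difference. The 5 measured genes summed to 89.1 to 403.3 in control, 368.3 to 1741 at 5 mg/kg, 1004 to 1136 at 10 mg/kg and 89.2 to 462.6 with G007-LK. All 5 had higher means at each dose, with median log2 differences of 2.10 and 1.99 where all genes had 0.12 and 0.69, and limma called 0 of them. At 5 mg/kg 1 of the 5 was above all control mice, where 2.82% of the panel was, and at 10 mg/kg 4 were, where 9.36% was. T cell genes were also above 0 on mean log2, 8 of 9 at 5 mg/kg (median 0.34) and 9 of 9 at 10 mg/kg (median 1.31).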
